A study of Drosophila melanogaster with 12 samples.

Results

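Wnt receptors and intracellular effectors were followed in the somatic niche of the Drosophila ovary through 10 genes: the receptor genes fz, fz2, fz3 and arr, and the effector genes dsh, Axn, sgg, arm, pan and nkd. They were taken by name, through the BDGP6 annotation, from the 13726 genes that carried values in the 12 RNA-seq libraries of the series, and all 10 were measured in every library. The libraries came from cells sorted by GFP from ovaries, with 2 libraries in each of 6 groups. TFCs-CpCs (terminal filament cells and cap cells, called cup cells in the sample records) were sorted at 4w and at 1w as the brightest cells of ovaries in which bab1-Gal4 drove UASp-tau::mGFP6, a driver that is also weakly active in escort cells. ECs (escort cells) were sorted at the same ages from females that carried ptc-LexA and LexAop-mCD8::GFP. Smu1 RNAi ECs came from females with 13xLexAop-mCD8::GFP, ptc-LexA, tub-Gal80ts, ptc-Gal4 and UAS-Smu1 RNAi, and control ECs from females with the same transgenes except UAS-Smu1 RNAi. Flies of the RNAi experiment were grown at 18 °C and kept at 29 °C for 2 weeks after eclosion, so that control ECs differ from the ageing ECs in genotype, temperature and age. Each sort pooled the ovaries of many females, far fewer cells were sorted for TFCs-CpCs than for ECs, and cDNA was amplified by PCR in all groups.

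Wnt proteins bind a Frizzled receptor together with the co-receptor Arrow, and the signal passes through Dishevelled to a complex built on the scaffold Axin. In the absence of a ligand, that complex uses the kinase Shaggy to mark the β-catenin Armadillo for destruction. When the complex is held back, Armadillo reaches the nucleus and works with the TCF factor Pangolin on target genes, some of which (naked cuticle and fz3 in other fly tissues) dampen or mark the signal in turn. In the germarium, Wnt signalling in escort cells is known for its part in the long protrusions of these cells and in germline differentiation. Armadillo is controlled mainly at the protein level, which RNA-seq does not read.

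The reads counted on genes ranged from 37580263 to 52487930 in TFCs-CpCs, from 12078227 to 16888122 in the ageing ECs and from 13465657 to 15988320 in the RNAi experiment. Levels are given in cRPKM, the reads scaled for mappable transcript length and for the total of mapped reads, which allows genes to be compared. Across genes, the Pearson correlation of log2(cRPKM + 1) between the 2 libraries of a group was lowest in TFCs-CpCs 4w, at 0.865, and highest in control ECs, at 0.988. Of 7 markers of TFCs-CpCs, en, inv, LamC, bab2 and dpp were higher in TFCs-CpCs than in ECs at 1w, whereas hh went against the label, with 5.35 and 7.65 cRPKM in TFCs-CpCs and 117.79 and 91.48 cRPKM in ECs. At 4w, 3 of the 7 were called higher (en, LamC and dpp), and hh overlapped between the cell groups. Of 3 EC markers matched, ptc and tj were lower in TFCs-CpCs at both ages, whereas Wnt4 was lower at 1w and went against the label at 4w, with 307.00 and 1390.23 cRPKM in TFCs-CpCs and 370.70 and 256.98 cRPKM in ECs (1.52 ± 0.71 on the log2 scale, adjusted p = 0.272, edgeR). The summed level of 12 muscle genes was 1588 to 1718 cRPKM in TFCs-CpCs 4w, against 45329 to 47608 cRPKM in TFCs-CpCs 1w, and 127 to 133 cRPKM in ECs 4w, against 443 to 1216 cRPKM in ECs 1w, and none of these muscle genes was at 0 in both libraries of a group. The summed level of 5 hemocyte markers was 70.7 to 148 cRPKM in TFCs-CpCs 4w, 352 to 377 cRPKM in TFCs-CpCs 1w and 37.4 to 62.4 cRPKM in the 8 libraries of ECs. In TFCs-CpCs 1w, the sum came almost wholly from Pxn (301.84 and 284.70 cRPKM) and crq (73.97 and 67.04 cRPKM). There, Hml had 2 and 0 reads, NimC1 had 1 and 0, and eater had 73 and 0. The 4 neuron markers summed to 6.83 to 14.8 cRPKM in TFCs-CpCs, where nSyb was at 0 in both 1w libraries, and to 19.2 to 46.6 cRPKM in ECs. The 3 fat body markers summed to 6.01 to 19.8 cRPKM in TFCs-CpCs, where Fbp1 was at 0 in both 1w libraries, and to 2.64 to 113 cRPKM in ECs. Most of each neuron sum came from elav, as no other neuron marker was above 3.95 cRPKM in any library. Most of each fat body sum came from Obp44a, as Lsp2 and Fbp1 were at most 2.47 cRPKM.

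A gene was called where its log2 fold change in edgeR's quasi-likelihood test was at least 1 in size with an adjusted p under 0.1, over all genes tested. The 2 libraries of a group are described as biological replicates. The p-values set a difference between groups against the spread between these libraries, which edgeR estimates with information from all genes tested. In bulk libraries, fewer cells of a type and less RNA per cell cannot be told apart.

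**Figure D1:**
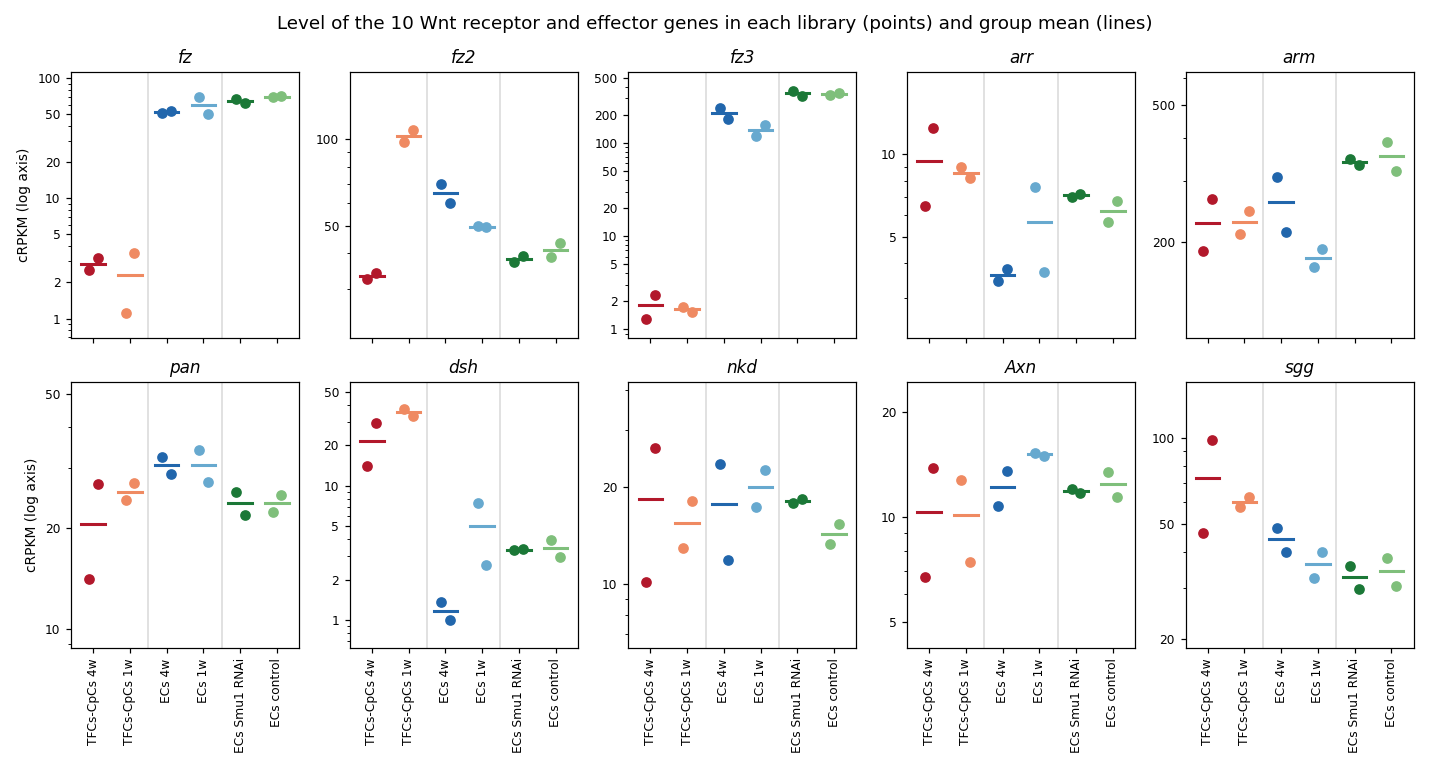
cRPKM on a log axis (vertical) of the 10 genes in the 6 groups (horizontal), with 1 point for each of 2 libraries and a line at their mean. The panels of fz and fz3 show TFCs-CpCs at 1.11 to 3.49 cRPKM and ECs above 50 cRPKM, the panel of dsh shows the opposite order, and fz2 in TFCs-CpCs 4w lies at 32.48 and 34.05 cRPKM, below its 97.51 and 107.52 cRPKM in TFCs-CpCs 1w.

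The receptors set the cell groups apart. TFCs-CpCs held fz and fz3 at no more than 3.49 cRPKM, and fz2 made up most of their Frizzled RNA, whereas ECs held all of the receptors fz, fz2 and fz3, with fz3 at the highest level. Among the effectors, dsh was higher in TFCs-CpCs than in ECs. The other effectors lay close together in the cell groups, apart from a higher level of sgg in TFCs-CpCs at 1w.

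In TFCs-CpCs over ECs at 1w, 5 of the 10 genes were called, 3 higher (fz2, dsh and sgg) and 2 lower (fz and fz3), beside 31.2% of the 10173 genes tested in that comparison, 14.0% higher and 17.2% lower. At 4w, 3 of the 10 were called, dsh higher and fz and fz3 lower, beside 6.12% of 9908 genes, 3.74% higher and 2.37% lower. With limma on log2(cRPKM + 1), the calls over all genes were 1074 higher and 2200 lower at 1w, against 1422 and 1750 with edgeR, and 436 higher and 524 lower at 4w, against 371 and 235 with edgeR. At 1w the share of genes called was large over the whole table, and the direction and size of each gene carry more than the count. The median log2 difference was 0.41 over the 10 genes at 1w, against -0.19 over all genes, and -0.12 at 4w, against -0.03 over all genes. Leaving out 1 library gave 1944 to 3150 calls over all genes at 1w, against 3172 with all libraries, and 0 to 2285 at 4w, against 606. In the same comparison, 11 of 12 muscle markers were called higher in TFCs-CpCs at 1w and 10 of 11 tested at 4w. At 1w, the germline marker Rbp9 and the hemocyte marker Pxn were also called higher, at 3.20 and 6.12 on the log2 scale, and 1 marker each of hemocytes (Hml), follicle cells (Vm26Aa), neurons (nSyb) and fat body (Obp44a) was called lower. At 4w, 3 of 8 follicle cell markers were called higher (Yp1, Vm32E and psd), all 8 had a value above 0, and their median was 1.55, against -0.03 over all genes. Their summed level was 18774 to 43065 cRPKM in TFCs-CpCs 4w, against 6970 to 8651 cRPKM in ECs 4w, and 3062 to 9207 cRPKM in TFCs-CpCs 1w, against 9021 to 9945 cRPKM in ECs 1w. The part of these cells in the values of the 10 genes was not tested. Driver, gate, number of sorted cells and depth differed with the cell group and cannot be told apart from it.

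The gene fz (FBgn0001085, 3L:14274343-14368639, plus strand) encodes Frizzled, a Wnt receptor that also acts in planar polarity. Its level was 1.11 and 3.49 cRPKM in TFCs-CpCs 1w, from 186 and 691 reads, against 69.32 and 50.54 cRPKM in ECs 1w. At 4w, it was 2.52 and 3.20 cRPKM in TFCs-CpCs and 51.29 and 53.46 cRPKM in ECs. All 4 libraries of TFCs-CpCs were far below all 4 of the ageing ECs. On the log2 scale, the difference was -4.34 ± 0.59 (SE) at 1w (adjusted p = 0.00447, edgeR, n = 2 libraries each) and -4.08 ± 0.40 at 4w (adjusted p = 0.0186, edgeR).

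The gene fz3 (FBgn0027343, X:769945-784222, plus strand) encodes a Frizzled that is induced by Wingless in imaginal discs. It had 1.75 and 1.54 cRPKM in TFCs-CpCs 1w, against 119.33 and 156.28 cRPKM in ECs 1w, and 1.30 and 2.32 cRPKM in TFCs-CpCs 4w, against 234.70 and 177.99 cRPKM in ECs 4w. No other of the 10 genes differed as much between the cell groups. The log2 difference was -6.03 ± 0.37 at 1w (adjusted p = 0.000411, edgeR) and -6.73 ± 0.53 at 4w (adjusted p = 0.0138, edgeR). Between 150 and 192 reads stood behind each level in TFCs-CpCs. The calls of fz and fz3 at 4w were lost without the first library of ECs 4w, at an adjusted p of 0.102 for both genes in edgeR, with log2 differences of -4.13 and -6.53, in a fit that called no gene of the whole table.

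The gene fz2 (FBgn0016797, 3L:19140975-19235373, minus strand) encodes Frizzled 2, a receptor with high affinity for Wingless. Its level was 97.51 and 107.52 cRPKM in TFCs-CpCs 1w, against 49.64 and 49.23 cRPKM in ECs 1w. At 4w, the order was turned, with 32.48 and 34.05 cRPKM in TFCs-CpCs and 69.61 and 59.83 cRPKM in ECs. Neither age showed an overlap between the cell groups. The log2 difference was 1.42 ± 0.23 at 1w (adjusted p = 0.00905, edgeR) and -0.85 ± 0.35 at 4w, which was not called (adjusted p = 0.230, edgeR). At 1w, it ranged from 1.04, close to the fold threshold, to 1.56 in the 8 alternatives with all libraries, and was called in each.

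Next to these genes, fz4, a Frizzled outside the 10, was low in all groups, at 1.83 to 10.93 cRPKM. Of the summed cRPKM of fz, fz2, fz3 and fz4, fz2 took 68.8% and 77.2% in TFCs-CpCs 4w and 94.1% and 90.1% in TFCs-CpCs 1w. In ECs its share was 19.5% and 20.4% at 4w and 20.4% and 19.1% at 1w. The fz3 share was 65.6% and 60.7% in ECs 4w and 49.0% and 60.6% in ECs 1w, and 1.29% to 5.26% in the 4 libraries of TFCs-CpCs. In the RNAi experiment, fz3 took 76.8% and 75.3% in Smu1 RNAi ECs and 74.2% in both control libraries. The sum itself was 47.2 and 44.1 cRPKM in TFCs-CpCs 4w, against 104 and 119 cRPKM in TFCs-CpCs 1w. In ECs it was 358 and 293 cRPKM at 4w and 244 and 258 cRPKM at 1w. The lower fz2 of TFCs-CpCs 4w thus went with a lower sum, and the share of fz4 there was 23.1% and 10.3%, against 3.13% and 5.67% in TFCs-CpCs 1w.

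**Figure D2:**
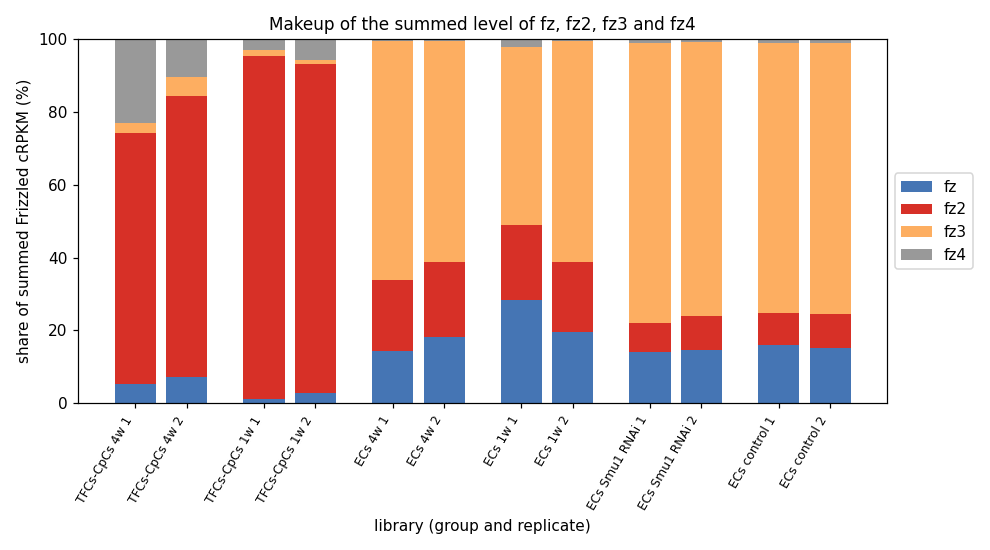
Share (%) of each Frizzled gene in the summed cRPKM of fz, fz2, fz3 and fz4 (vertical), in stacked bars for each of the 12 libraries (horizontal). The fz2 part fills 68.8% to 94.1% of the bars of TFCs-CpCs, and the fz3 part fills 49.0% to 76.8% of the bars of ECs.

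The co-receptor gene arr (FBgn0000119, 2R:13453640-13483229, minus strand), which encodes the fly LRP5/6, had the lowest mean level of the 4 receptor genes in ECs. It had 8.93 and 8.16 cRPKM in TFCs-CpCs 1w, against 7.59 and 3.73 cRPKM in ECs 1w, and 6.49 and 12.42 cRPKM in TFCs-CpCs 4w, against 3.44 and 3.82 cRPKM in ECs 4w. The groups did not overlap at either age. The log2 difference of 1.49 ± 0.50 at 4w was not called (adjusted p = 0.154, edgeR), nor was that of 0.98 ± 0.43 at 1w (adjusted p = 0.146, edgeR). The 4w difference was called in 3 of the 8 alternatives that kept all libraries at the same threshold (DESeq2, no filter on low counts, and all 12 libraries in one fit).

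The effector gene dsh (FBgn0000499, X:11355881-11358724, plus strand) encodes Dishevelled, which takes the signal from the receptors to the Axin complex. Its level was 37.17 and 33.32 cRPKM in TFCs-CpCs 1w, against 7.44 and 2.57 cRPKM in ECs 1w. At 4w, it was 14.13 and 29.16 cRPKM in TFCs-CpCs and 1.36 and 1.00 cRPKM in ECs, the last from 62 and 47 reads. Every library of TFCs-CpCs was above every library of ECs, the RNAi experiment included. The log2 difference was 3.22 ± 0.53 at 1w (adjusted p = 0.00944, edgeR) and 4.29 ± 0.62 at 4w (adjusted p = 0.0259, edgeR). The 4w call was lost without the first library of ECs 4w (4.51, adjusted p = 0.153, edgeR) and without the second (4.05, adjusted p = 0.133, edgeR).

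The kinase gene sgg (FBgn0003371, X:2633952-2679553, plus strand) encodes the fly GSK3. It had 57.45 and 62.26 cRPKM in TFCs-CpCs 1w, against 32.57 and 40.09 cRPKM in ECs 1w, a log2 difference of 1.08 ± 0.28 (adjusted p = 0.0397, edgeR). At 4w, the levels were 46.56 and 98.08 cRPKM in TFCs-CpCs and 48.72 and 39.93 cRPKM in ECs, which overlapped, with a log2 difference of 0.81 ± 0.45 (adjusted p = 0.345, edgeR). The 1w difference lay close to the fold threshold and fell below it with limma on log2(cRPKM + 1), at 0.71, with limma on log2(cRPKM + 0.1), at 0.73, with a minimum mean of 5 cRPKM, at 0.92, and without the first library of ECs 1w, at 0.83. Of the exon bases of sgg, 11.8% are shared with lncRNA:CR45197 on the same strand, so that reads there belong to either gene.

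The β-catenin gene arm (FBgn0000117, X:1891401-1900646, minus strand) was the most abundant of the 10 genes in all 6 groups by mean cRPKM. At 1w it had 211.13 and 246.92 cRPKM in TFCs-CpCs and 169.04 and 191.55 cRPKM in ECs, with a log2 difference of 0.71 ± 0.24 that was under the fold threshold (adjusted p = 0.0813, edgeR). At 4w, 188.02 and 266.07 cRPKM in TFCs-CpCs overlapped with 309.67 and 214.29 cRPKM in ECs, with a log2 difference of -0.10 ± 0.41 (adjusted p = 0.924, edgeR). An overlap with mRpL16 on the opposite strand covers 2.30% of the exon bases of arm.

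The TCF gene pan (FBgn0085432, 4:69326-114270, plus strand), the scaffold gene Axn (FBgn0026597, 3R:30022842-30035311, plus strand) and nkd (FBgn0002945, 3L:19003741-19045449, minus strand), whose product binds Dishevelled and dampens the signal, differed little between the cell groups. Their log2 differences ranged between -0.21 and 0.11 at 1w and between -0.48 and 0.15 at 4w, each with an SE of 0.26 to 0.56. For pan, 24.09 and 27.08 cRPKM in TFCs-CpCs 1w stood against 33.97 and 27.31 cRPKM in ECs 1w, and 14.03 and 27.01 cRPKM in TFCs-CpCs 4w against 32.44 and 28.89 cRPKM in ECs 4w. For Axn, the values were 12.81 and 7.42 cRPKM in TFCs-CpCs 1w and 15.31 and 15.03 cRPKM in ECs 1w, then 6.73 and 13.88 cRPKM in TFCs-CpCs 4w and 10.78 and 13.58 cRPKM in ECs 4w. For nkd, they were 12.96 and 18.03 cRPKM in TFCs-CpCs 1w and 17.31 and 22.59 cRPKM in ECs 1w, then 10.15 and 26.46 cRPKM in TFCs-CpCs 4w and 23.53 and 11.86 cRPKM in ECs 4w. Antisense RNA CR44045 and ZIPIC, on the opposite strand, cover 7.50% of the exon bases of Axn, and transposon insertions cover 9.06% of those of pan.

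**Figure D3:**
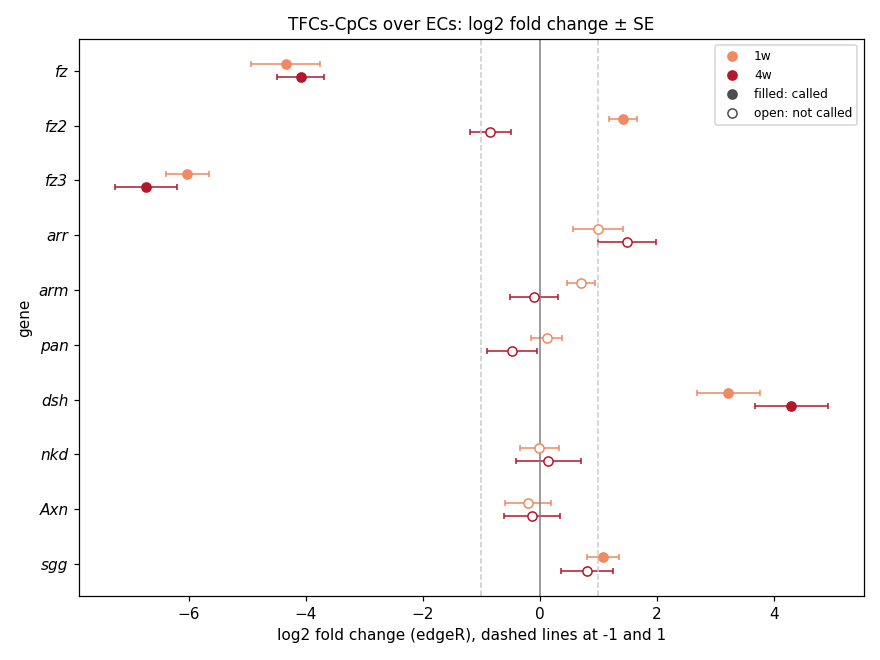
Log2 fold change of TFCs-CpCs over ECs (horizontal, with SE bars, edgeR) of the 10 genes (vertical) at 1w and at 4w, filled where called. The points of fz and fz3 lie between -4.08 and -6.73, those of dsh at 3.22 and 4.29, and that of fz2 changes side, at 1.42 for 1w and -0.85 for 4w.

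The age comparison asked which genes change in each niche cell group over the first weeks of adult life. In TFCs-CpCs, fz2 fell at 4w and no other of the 10 genes was called. In ECs, none of the 10 was called. The share of called genes over the whole table was 5.18% of 9249 genes in TFCs-CpCs and 0.103% of 10675 genes in ECs, where 570 genes had an unadjusted p under 0.05. Leaving out 1 library gave 172 to 1246 calls over all genes in TFCs-CpCs, against 479 with all libraries, and 1 to 32 in ECs, against 11. At an unadjusted p under 0.05, edgeR gave 1 of the 10 in ECs (fz3), and DESeq2 called none of the 10.

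The level of fz2 was 32.48 and 34.05 cRPKM in TFCs-CpCs 4w, from 6153 and 4638 reads, against 97.51 and 107.52 cRPKM in TFCs-CpCs 1w, from 15775 and 20452 reads. The libraries of each age were close to each other, and the ages were far apart. The mean was 33.3 ± 1.11 cRPKM at 4w and 103 ± 7.08 cRPKM at 1w (SD, n = 2 each), a ratio of 0.324. The gene fell by 1.88 ± 0.32 on the log2 scale (adjusted p = 0.0451, edgeR), and by 1.59 to 1.89 in the 8 alternatives with all libraries, in each of which it was called. The call was lost without the first library of TFCs-CpCs 1w (adjusted p = 0.321, edgeR) and without the second (adjusted p = 0.248, edgeR), with log2 fold changes of -1.90 and -1.89. In the same comparison, all 11 tested muscle markers had a log2 fold change below 0, and 10 were called lower. The summed level of the muscle markers was 1588 to 1718 cRPKM at 4w and 45329 to 47608 cRPKM at 1w. All 6 germline markers were below 0 as well, with a median of -2.39, and 1 was called lower. Their summed level was 22.0 to 41.9 cRPKM at 4w and 189 to 265 cRPKM at 1w. The summed level of 8 follicle cell markers was 18774 to 43065 cRPKM at 4w and 3062 to 9207 cRPKM at 1w, with 1 called higher. Of the 7 markers of TFCs-CpCs themselves, 6 had a log2 fold change above 0, with a median of 1.52 against 0.04 over all genes and a summed level of 530 to 1393 cRPKM at 4w and 308 to 361 cRPKM at 1w. Among them, en was called, with 71.37 and 297.71 cRPKM at 4w, against 13.95 and 20.30 cRPKM at 1w. The EC marker tj had 107.64 and 144.18 cRPKM at 4w and 36.80 and 45.06 cRPKM at 1w (1.36 ± 0.34, adjusted p = 0.120, edgeR), and the 3 EC markers summed to 421 to 1544 cRPKM at 4w and 125 to 133 cRPKM at 1w. The part of these shifts in the fz2 values was not tested.

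The next largest change among the 10 genes in TFCs-CpCs was that of dsh, with 14.13 and 29.16 cRPKM at 4w and 37.17 and 33.32 cRPKM at 1w. The ages did not overlap, but the 4w libraries were farther apart than the means of the ages. Its log2 fold change of -0.99 ± 0.43 was not called (adjusted p = 0.321, edgeR), and it was called only without the second library of 4w (-1.49, adjusted p = 0.0811, edgeR). The remaining 8 genes had log2 fold changes from -0.59 ± 0.40 for pan to 0.08 ± 0.81 for fz. Of the 10 genes, 9 had a value below 0 in the main fit and their median was -0.21, against 0.04 over all genes. Several of these signs depended on the method. In the alternatives with all libraries, the sign was kept in 2 of 8 for sgg, 3 of 8 for nkd, 6 of 8 for arr and 5 of 7 for fz3. It was kept in all 8 for fz2, dsh, pan, arm and Axn. The ratio of mean cRPKM, 4w over 1w, was 1.21 for sgg, 1.18 for nkd, 1.11 for arr, 1.10 for fz3 and 1.02 for Axn. In TFCs-CpCs 4w, all 10 genes were lower in the first library than in the second, with a median log2 ratio of -0.87 in cRPKM + 1, against -0.09 over the 8166 genes that averaged 1 cRPKM or more. In TFCs-CpCs 1w, 6 of the 10 were lower in the first library.

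In ECs, fz3 and arm had the highest fold changes of the 10 genes. The fz3 level was 234.70 and 177.99 cRPKM in ECs 4w, against 119.33 and 156.28 cRPKM in ECs 1w, a log2 fold change of 0.64 ± 0.30 (adjusted p = 0.927, edgeR). The arm level was 309.67 and 214.29 cRPKM in ECs 4w and 169.04 and 191.55 cRPKM in ECs 1w (0.61 ± 0.29, adjusted p = 0.934, edgeR). Both genes were higher in both 4w libraries than in both 1w libraries, by less than 2-fold and without passing the test. For fz2, 69.61 and 59.83 cRPKM in ECs 4w stood against 49.64 and 49.23 cRPKM in ECs 1w (0.46 ± 0.29, adjusted p = 0.999, edgeR).

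The lowest fold change in ECs was that of dsh, with 1.36 and 1.00 cRPKM in ECs 4w from 62 and 47 reads, against 7.44 and 2.57 cRPKM in ECs 1w from 249 and 107 reads. The 1w libraries were farther from each other than the lower of them was from the 4w libraries. The log2 fold change of -1.95 ± 1.07 was not called (adjusted p = 0.997, edgeR). The gene arr had 3.44 and 3.82 cRPKM in ECs 4w and 7.59 and 3.73 cRPKM in ECs 1w (-0.53 ± 0.56), so that its difference rested on 1 library of 1w. The log2 fold changes of fz, pan, nkd, Axn and sgg in ECs were between -0.24 and 0.35. Over the 10 genes, 5 values were above 0 and 5 below, with a median of -0.01, against -0.03 over all genes. Of 12 muscle markers, 11 had a log2 fold change below 0 in ECs at 4w, and 5 were called lower. The summed level of the 12 was 127 to 133 cRPKM at 4w and 443 to 1216 cRPKM at 1w, and their part in these values was not tested.

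The ageing effect of TFCs-CpCs minus that of ECs was tested as an interaction over 8 libraries, and fz2 was the 1 gene of the 10 that was called, beside 2.47% of 11452 genes. The difference between the ageing effects of fz2 was -2.34 ± 0.44 on the log2 scale (adjusted p = 0.0339, edgeR). Over the 8 alternatives with all libraries, this value ranged from -2.35 to -1.97 with the call kept. It was lost in 4 of 8 fits that left out 1 library: without the first of TFCs-CpCs 1w (-2.33, adjusted p = 0.102, edgeR), the first of ECs 4w (-2.19, adjusted p = 0.139, edgeR), and the first (-2.22, adjusted p = 0.126, edgeR) or the second of ECs 1w (-2.41, adjusted p = 0.127, edgeR). For dsh, whose values were lower at 4w in both cell groups, the difference between the ageing effects was 0.98 ± 0.75 (adjusted p = 0.634, edgeR). The differences of the other 8 genes ranged from -0.88 ± 0.51 for arm to 0.41 ± 0.67 for arr, none called. In this test, 5 of 12 muscle markers and 1 of 6 germline markers (Rbp9) were called with a lower ageing effect in TFCs-CpCs. With a higher one, 2 of 8 follicle cell markers (Vm32E and psd) and 1 of 7 markers of TFCs-CpCs (hh, 3.26 ± 0.75) were called, and the median of the follicle cell markers was 1.93, against 0.13 over all genes. Leaving out 1 library gave 69 to 489 calls over all genes, against 283 with all libraries. The part of these cells in the difference for fz2 was not tested.

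**Figure D4:**
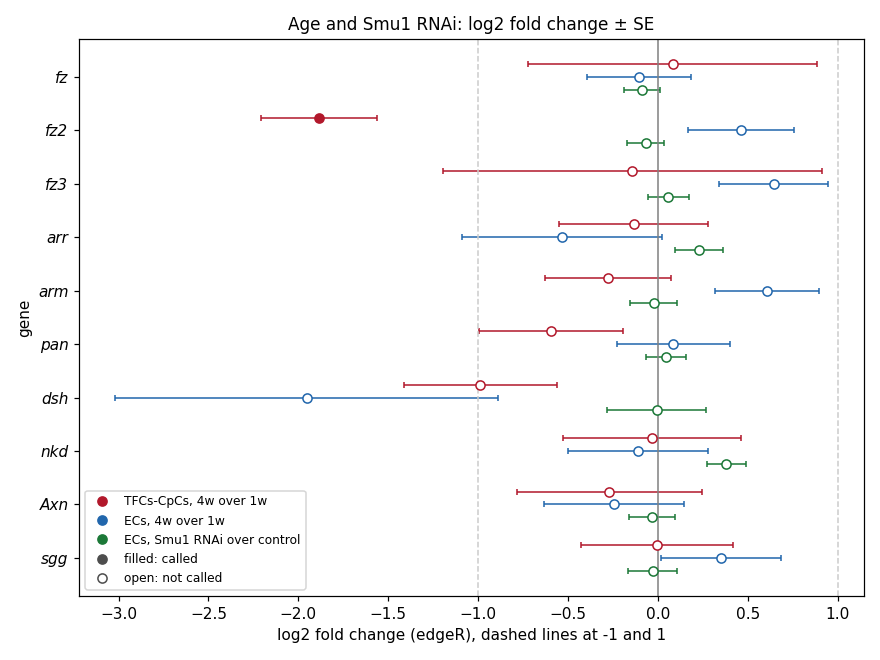
Log2 fold change (horizontal, with SE bars, edgeR) of the 10 genes (vertical) for age (4w over 1w) in TFCs-CpCs, age in ECs, and Smu1 RNAi over control in ECs, filled where called. The single filled point is fz2 in TFCs-CpCs, at -1.88, and in the RNAi comparison all points lie between -0.09 and 0.38.

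The RNAi comparison asked which genes depend on Smu1, which encodes a spliceosome factor, in ECs. Smu1 (FBgn0038666, 3R:18978980-18981324, minus strand) had 4.17 and 5.51 cRPKM in Smu1 RNAi ECs, against 26.39 and 23.63 cRPKM in control ECs, and fell by 2.34 ± 0.19 on the log2 scale (adjusted p = 6.43e-05, edgeR). The libraries of this experiment thus matched their labels. It was not called in the fit of all 12 libraries, at -2.30 with an adjusted p of 1.0 in edgeR, a fit that shares 1 estimate of the spread over all libraries and called 1 of 11862 genes. An overlap with dnk on the opposite strand covers 5.77% of its exon bases. In ageing, Smu1 had 15.45 and 12.60 cRPKM in TFCs-CpCs 4w, 4.83 and 10.49 cRPKM in TFCs-CpCs 1w, 22.60 and 19.57 cRPKM in ECs 4w, and 14.45 and 7.85 cRPKM in ECs 1w, with no call in either cell group.

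None of the 10 genes was called in Smu1 RNAi ECs, beside 1.11% of 9933 genes. At an unadjusted p under 0.05, edgeR gave 1 of the 10 and 1088 of all genes, and DESeq2 called none of the 10. These libraries had the smallest errors of the series, with SE of 0.10 to 0.27 on the log2 scale for the 10 genes, and all 10 fold changes were under 2-fold in size. The gene was nkd, with 17.85 and 18.34 cRPKM in Smu1 RNAi ECs, against 13.27 and 15.30 cRPKM in control ECs. The groups did not overlap, and the log2 fold change of 0.38 ± 0.11 was under the fold threshold (adjusted p = 0.147, edgeR). For fz, 66.29 and 62.14 cRPKM in Smu1 RNAi ECs stood below 69.95 and 70.32 cRPKM in control ECs (-0.09 ± 0.10). For arr, 6.99 and 7.18 cRPKM in Smu1 RNAi ECs stood above 5.65 and 6.77 cRPKM in control ECs (0.23 ± 0.13). The levels of fz3, arm and fz2 overlapped between the groups. The level of fz3 was 359.78 and 319.83 cRPKM in Smu1 RNAi ECs and 326.62 and 343.11 cRPKM in control ECs. That of arm was 349.00 and 335.09 cRPKM in Smu1 RNAi ECs and 389.85 and 321.71 cRPKM in control ECs. That of fz2 was 37.39 and 39.08 cRPKM in Smu1 RNAi ECs and 38.83 and 43.57 cRPKM in control ECs. The effectors pan, dsh, Axn and sgg had log2 fold changes between -0.03 and 0.04. The median over the 10 genes was -0.02, against -0.0022 over all genes. The summed level of the 12 muscle markers was 71.1 to 120 cRPKM in Smu1 RNAi ECs and 49.1 to 66.2 cRPKM in control ECs, with 1 marker (Mlc2) called higher. The TFCs-CpCs marker LamC was called higher as well, with 28.23 and 12.91 cRPKM in Smu1 RNAi ECs, against 10.23 and 9.57 cRPKM in control ECs (1.09 ± 0.27, adjusted p = 0.0823, edgeR). Of the 7 markers of TFCs-CpCs, 4 had a log2 fold change above 0 and 3 below. The marker en was lower, with 0.32 and 0.52 cRPKM in Smu1 RNAi ECs, against 0.88 and 1.13 cRPKM in control ECs. The germline marker nanos was called lower, with 1.91 and 1.69 cRPKM in Smu1 RNAi ECs, against 4.03 and 6.73 cRPKM in control ECs (-1.53 ± 0.34). It was the 1 call among 6 germline markers, of which 2 had a log2 fold change above 0 and 4 below. Of 8 follicle cell markers, 6 were above 0 and 2 below, with a median of 0.58 and none called. Of 5 hemocyte markers, 1 was above 0 and 4 below, with a median of -0.64 and 0 called. The part of these cells in the values of this comparison was not tested.

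By mean cRPKM within each group, arm was first of the 10 genes in all 6 groups, and fz3 was second in all 4 groups of ECs and last in both groups of TFCs-CpCs. The gene dsh followed arm, fz2 and sgg in both groups of TFCs-CpCs and was last in the 4 groups of ECs. For fz, the order of the groups by mean was control ECs, Smu1 RNAi ECs, ECs 1w, ECs 4w, TFCs-CpCs 4w and TFCs-CpCs 1w. Among these neighbours, Smu1 RNAi ECs overlapped with ECs 1w, ECs 1w with ECs 4w, and the 2 ages of TFCs-CpCs with each other. For fz2, the order was TFCs-CpCs 1w, ECs 4w, ECs 1w, control ECs, Smu1 RNAi ECs and TFCs-CpCs 4w, and only control and Smu1 RNAi ECs overlapped. For fz3, Smu1 RNAi ECs and control ECs were first and overlapped, ECs 4w and ECs 1w followed without overlap, and the ages of TFCs-CpCs overlapped at the end. The ECs of the RNAi experiment differ from the ageing ECs in genotype, temperature and age, and no test was made between them. For nkd, all neighbouring groups in the order overlapped. From the lowest to the highest library, the ratio of the cRPKM was 277 for fz3, 63.4 for fz and 37.2 for dsh, and 2.27 to 3.61 for the other 7 genes.

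The 3 genes most like each called member were found by the Pearson correlation of log2(cRPKM + 1) over the 12 libraries, among 7017 genes that averaged 5 cRPKM or more. These values are a description, since the libraries share cell group, sort and depth, and fz, fz3 and dsh split them by cell group. For fz, they were wun2 (0.992), 28SrRNA-Psi:CR45853 (0.990) and Sema1a (0.989), and for fz3, RhoGAP16F (0.994), tw (0.992) and Sf3a2 (0.990). For fz2, they were boi (0.962), Pkc98E (0.958) and Ras85D (0.939). For dsh, they were Epac (0.985), TBC1D16 (0.985) and abd-A (0.977), and for sgg, Vps50 (0.979), Tak1 (0.953) and FBgn0026370 (0.946), which has no name in the table used.

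Ligands, modifiers, other receptors and further components were followed through a wider list of 36 genes matched by name. With age, edgeR called none of 34 tested in TFCs-CpCs and none of 36 in ECs, while 5 had an unadjusted p under 0.05 in each, beside 1602 of 9249 genes in TFCs-CpCs and 570 of 10675 genes in ECs. DESeq2 called 4 in TFCs-CpCs (Wnt4, Wnt6, Notum and Apc2) and 1 in ECs (wls), and Wnt4 and Wnt6 were also called in TFCs-CpCs with limma on both scales, with the replicate block, without a filter on low counts, with a minimum mean of 5 cRPKM, and with all 12 libraries in one fit, which called 6 of the list. Leaving out 1 library gave 5 calls without the first library of TFCs-CpCs 4w, 4 without the second, and 0 without either library of 1w. With Smu1 RNAi, 1 of 34 was called, beside 1.11% of all genes. Between the cell groups, 15 of 35 were called at 1w, beside 31.2% of all genes, 5 higher and 10 lower in TFCs-CpCs. At 4w, 8 of 34 were called, beside 6.12% of all genes, 2 higher (Wnt6 and dco) and 6 lower (Wnt2, Notum, dlp, otk, otk2 and pk). None of these 8 was called without the first library of ECs 4w, only pk and otk without the second, 13 of the list without the first library of TFCs-CpCs 4w and 12 without the second. At an adjusted p under 0.05, the 4w calls of Wnt2, dlp and Notum were lost. The median log2 difference of the list was -0.32 at 1w, against -0.19 over all genes, and -0.21 at 4w, against -0.03 over all genes.

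Of the ligands, Wnt6 was higher in TFCs-CpCs than in ECs at both ages. It had 34.42 and 29.15 cRPKM in TFCs-CpCs 1w, against 10.89 and 3.06 cRPKM in ECs 1w (2.60 ± 0.59, adjusted p = 0.0282, edgeR), and 116.73 and 474.44 cRPKM in TFCs-CpCs 4w, against 12.86 and 11.10 cRPKM in ECs 4w (4.72 ± 0.73, adjusted p = 0.0283, edgeR). Its 2 libraries in TFCs-CpCs 4w were far apart, and the change with age in TFCs-CpCs, 2.92 ± 0.69, was not called (adjusted p = 0.109, edgeR). It was called in 7 of the 9 alternatives with all libraries. Wnt6 was also the 1 gene of the list called with Smu1 RNAi, with 31.56 and 34.80 cRPKM in Smu1 RNAi ECs, against 12.88 and 13.36 cRPKM in control ECs (1.37 ± 0.12, adjusted p = 7.94e-05, edgeR). The call was lost in the fit of all 12 libraries. The levels of Wnt6 in Smu1 RNAi ECs were above those of every other EC library.

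Wnt2 was lower in TFCs-CpCs, at 5.48 and 11.87 cRPKM in TFCs-CpCs 1w, against 119.94 and 118.72 cRPKM in ECs 1w, and at 15.66 and 38.56 cRPKM in TFCs-CpCs 4w, against 225.83 and 171.56 cRPKM in ECs 4w. The log2 differences were -3.43 ± 0.42 at 1w (adjusted p = 0.00334, edgeR) and -2.78 ± 0.52 at 4w (adjusted p = 0.0502, edgeR). Wnt4 had 76.89 and 78.95 cRPKM in TFCs-CpCs 1w, against 353.78 and 235.07 cRPKM in ECs 1w (-1.54 ± 0.26, adjusted p = 0.0103, edgeR). At 4w, its 307.00 and 1390.23 cRPKM in TFCs-CpCs overlapped with 370.70 and 256.98 cRPKM in ECs, and the change with age within TFCs-CpCs, 3.15 ± 0.74, was not called (adjusted p = 0.107, edgeR), but was called in the same 7 alternatives as that of Wnt6. Wnt5 was called lower at 1w, at 3.50 and 6.19 cRPKM in TFCs-CpCs and 15.55 and 24.01 cRPKM in ECs. The gene wntD, also called lower at 1w, had 0 and 0 reads in TFCs-CpCs and 35 and 32 reads in ECs.

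**Figure D5:**
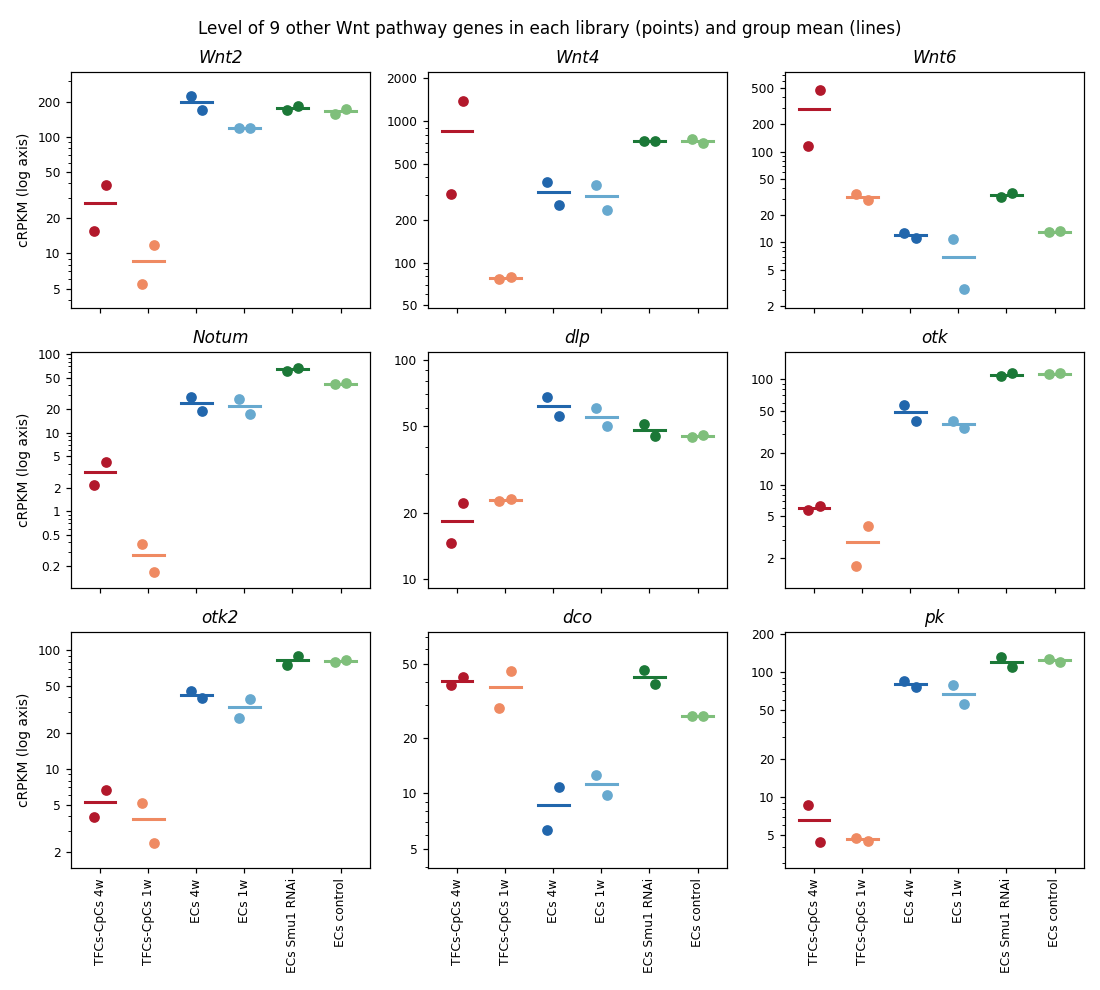
cRPKM on a log axis (vertical) of 9 other Wnt pathway genes in the 6 groups (horizontal), with 1 point for each of 2 libraries and a line at their mean. Notum, otk, otk2, pk and Wnt2 lie lower in TFCs-CpCs than in ECs, and Wnt6 lies higher than in the ageing and control ECs. In Smu1 RNAi ECs, Wnt6 is at 31.56 and 34.80 cRPKM, above 12.88 and 13.36 cRPKM in control ECs and overlapping with TFCs-CpCs 1w.

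Of the extracellular modifiers, Notum, which encodes a secreted enzyme that inactivates Wnt proteins, had 0.38 and 0.17 cRPKM in TFCs-CpCs 1w, against 26.76 and 17.03 cRPKM in ECs 1w (-5.94 ± 0.63, adjusted p = 0.00195, edgeR). It had 2.18 and 4.19 cRPKM in TFCs-CpCs 4w, against 28.45 and 18.79 cRPKM in ECs 4w (-2.79 ± 0.52, adjusted p = 0.0502, edgeR). Its ageing effect was 3.05 ± 0.78 higher in TFCs-CpCs than in ECs on the log2 scale (adjusted p = 0.0957, edgeR), the 1 call of the list in that test, beside 2.47% of all genes. The call was lost with limma on both scales, with the replicate block, at an adjusted p under 0.05 and in 6 of the 8 fits that left out 1 library. In Smu1 RNAi ECs, Notum had 61.05 and 66.68 cRPKM, against 42.14 and 42.23 cRPKM in control ECs, with an adjusted p of 0.00776 in edgeR and a log2 fold change of 0.64 ± 0.10 that was under the threshold. The gene dally, which encodes a glypican, was called higher in TFCs-CpCs at 1w, at 63.13 and 69.99 cRPKM, against 22.85 and 29.47 cRPKM in ECs, and so was Swim, whose product binds Wingless outside the cell, at 468.19 and 494.86 cRPKM, against 227.42 and 249.32 cRPKM in ECs. The other glypican gene, dlp, was called lower at 4w, at 14.63 and 22.21 cRPKM in TFCs-CpCs and 67.94 and 55.19 cRPKM in ECs.

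Of the other receptors, otk and otk2, which encode relatives of vertebrate PTK7, were lower in TFCs-CpCs at both ages. The gene otk had 1.68 and 4.06 cRPKM in TFCs-CpCs 1w, against 40.27 and 34.58 cRPKM in ECs 1w, and 5.74 and 6.22 cRPKM in TFCs-CpCs 4w, against 56.85 and 39.82 cRPKM in ECs 4w. The gene otk2 had 5.22 and 2.37 cRPKM in TFCs-CpCs 1w, against 27.09 and 38.76 cRPKM in ECs 1w, and 3.93 and 6.70 cRPKM in TFCs-CpCs 4w, against 45.36 and 39.28 cRPKM in ECs 4w. The Wnt5 receptor gene drl was called higher at 1w (1.51 ± 0.42, adjusted p = 0.0508, edgeR). The planar polarity gene pk had 4.73 and 4.50 cRPKM in TFCs-CpCs 1w, against 77.97 and 55.44 cRPKM in ECs 1w, and was called lower at both ages, while stan, called lower at 1w, was at most 1.43 cRPKM in any library.

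Of the further components, the casein kinase gene dco was higher in TFCs-CpCs at both ages, with 28.96 and 45.90 cRPKM in TFCs-CpCs 1w, against 12.56 and 9.81 cRPKM in ECs 1w, and 38.44 and 42.61 cRPKM in TFCs-CpCs 4w, against 6.37 and 10.89 cRPKM in ECs 4w. In Smu1 RNAi ECs it had 46.37 and 38.92 cRPKM, against 26.00 and 26.22 cRPKM in control ECs, a log2 fold change of 0.74 ± 0.11 with an adjusted p of 0.00460 in edgeR that was under the fold threshold. Of the nuclear cofactors, nej, which encodes the fly CBP, was called lower at 1w, at 2.75 and 0.96 cRPKM in TFCs-CpCs and 13.85 and 13.86 cRPKM in ECs.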

How the data were processed

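Values per gene came from 12 libraries made by RNA-seq of sorted cells of the ovary. The authors ran vast-tools on dm6, and for every gene they deposited read counts, which are not normalized, and cRPKM, an RPKM corrected for mappable length. The libraries were strand-specific, and whether strand was used in counting is not given in the sources used here. Of 14489 genes listed, 763 had no values and 13726 had values, of which 13506 were named through the BDGP6 annotation, whose coordinates are those of dm6.

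The quasi-likelihood test of edgeR 4.0.16 (R 4.3.3, TMM, Benjamini-Hochberg over all genes tested) was run on the libraries of each comparison alone, for genes that reached 10 counts in 2 libraries or more. Calls required a log2 fold change of 1 or more in size together with an adjusted p below 0.1. The SE is the absolute log2 fold change over the square root of F. The alternatives were DESeq2 1.42.0, median-of-ratios size factors in edgeR, no filter, a minimum mean of 5 cRPKM, a limit of 0.05 on the adjusted p, a joint fit of the 12 libraries, a block for the replicate number, limma 3.58.1 on log2(cRPKM + 1) and log2(cRPKM + 0.1), and leaving out each library. Only the main edgeR fit of each comparison was tested on simulated data, with changes larger than the fold threshold, and the alternatives were not. The reads counted on genes, 12078227 to 52487930 per library, make counting error small beside the spread between 2 libraries, except for genes with few reads.

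The 10 genes and all lists were chosen with earlier results of these data known. Named are the 10 genes, Smu1, the genes of the wider Wnt list called in a comparison, and for each called member the 3 genes most correlated with it. In the wider list, wg and slmb had no values and Evi was not matched, and these were not analysed here. Marker lists covered TFCs-CpCs, ECs, muscle, germline, hemocytes, follicle cells, neurons and fat body.

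In the ageing experiments, females of both ages were split from the same batch in each replicate. The replicate numbers match in all sources for ECs but not for TFCs-CpCs, whose pairs are therefore not known. The correlation of the deviations of same-numbered libraries from their group means was 0.0091 in ECs, -0.041 in TFCs-CpCs, where the numbers of the sources differ, and 0.136 in the RNAi experiment. No block was used in the main fit.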

Additional observations from a re-analysis of the deposited data

Results flagged for a closer look

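The change of fz2 with age differed between the cell groups by a test of the difference itself. The ageing effect of TFCs-CpCs minus that of ECs was -2.34 ± 0.44 (SE) on the log2 scale (adjusted p = 0.0339, edgeR, 8 libraries), with 32.48 and 34.05 cRPKM in TFCs-CpCs 4w, 97.51 and 107.52 cRPKM in TFCs-CpCs 1w, 69.61 and 59.83 cRPKM in ECs 4w, and 49.64 and 49.23 cRPKM in ECs 1w. The call was lost in 4 of the 8 fits that left out 1 library.

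The change of Notum with age also differed by that test, by 3.05 ± 0.78 (adjusted p = 0.0957, edgeR, 8 libraries). It had 2.18 and 4.19 cRPKM in TFCs-CpCs 4w, 0.38 and 0.17 cRPKM in TFCs-CpCs 1w, 28.45 and 18.79 cRPKM in ECs 4w, and 26.76 and 17.03 cRPKM in ECs 1w. This call lay close to the threshold and was lost with the replicate block, with limma on both scales, at an adjusted p under 0.05 and in 6 of the 8 fits that left out 1 library. The reads behind the low levels were 426 and 589 in TFCs-CpCs 4w and 63 and 33 in TFCs-CpCs 1w.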

How the results depend on the processing

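In the fits with all libraries, the number of the 10 genes called stayed within 1.5 times that reported in all 6 comparisons. With the replicate block it was 1 for age in TFCs-CpCs, 0 for age in ECs and 0 in Smu1 RNAi over control. It was 5 and 3 in TFCs-CpCs over ECs at 1w and at 4w, and 1 for the difference between the ageing effects. These counts equal those of the main fit. Between the cell groups, however, same-numbered libraries came from females of different genotypes, and the numbers of TFCs-CpCs differ between the sources. In fits with TFCs-CpCs, the block therefore cannot show what the true pairing would give. Leaving out 1 library gave 0 to 2 calls in TFCs-CpCs 4w over 1w, 0 to 5 in TFCs-CpCs over ECs at 4w and 0 to 1 for the difference between the ageing effects, where a group then has 1 library that is assumed to vary like the others. Of 828 single values recomputed, none changed side while called, 15 lost a call, 8 gained one, and 79 that were not called changed sign.

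The counts over all genes moved more. DESeq2 called 1423 genes against 479 for age in TFCs-CpCs, 113 against 11 for age in ECs, 1905 against 606 in TFCs-CpCs over ECs at 4w, and 908 against 283 for the difference between the ageing effects. Without a filter these counts were 1206, 63, 1287 and 566, and with all 12 libraries in one fit they were 1665, 40, 2608 and 931, with 4761 against 3172 at 1w and 1 against 110 with Smu1 RNAi. At an adjusted p under 0.05 they were 287 in TFCs-CpCs 4w over 1w, 1987 at 1w, 224 at 4w and 130 for the difference. The replicate block gave 259 with Smu1 RNAi and 18 in ECs 4w over 1w, a mean of at least 5 cRPKM gave 69 with Smu1 RNAi, and limma on log2(cRPKM + 1) gave 7 in ECs 4w over 1w and 960 at 4w. With limma on log2(cRPKM + 0.1) there were 7 in ECs 4w over 1w, 1053 at 4w and 119 for the difference. Leaving out the first or the second library of a group gave, for age in TFCs-CpCs, 1246 or 963 without 4w libraries and 172 or 268 without 1w libraries, and for age in ECs, 17 or 21 without 4w libraries and 1 or 32 without 1w libraries. In TFCs-CpCs over ECs at 4w it gave 2285 or 921 without libraries of TFCs-CpCs and 0 or 106 without libraries of ECs, and at 1w 1944 without the first library of ECs. For the difference between the ageing effects it gave 489 without the first library of TFCs-CpCs 4w, 144 without the first of TFCs-CpCs 1w, 119 or 125 without those of ECs 4w, and 120 or 69 without those of ECs 1w. The causes were not tested. The median log2 difference over all genes shifted by -0.45 at 1w without a filter and by -0.35 with limma on log2(cRPKM + 0.1). The log2 differences of -4.34 and -6.03 for fz and fz3 are far larger, whereas that of 1.42 for fz2 fell as low as 1.04 in the alternatives. With limma on log2(cRPKM + 1), 273 genes were called higher and 443 lower in TFCs-CpCs 4w over 1w, against 116 and 363 with edgeR.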
